A study of Mus musculus with 4 samples.

Results

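Dense clusters of distal open chromatin regions were described in dental mesenchyme of the mouse incisor. The cells came from wild-type C57BL/6 mice aged 4 weeks, with no treatment. The assay was ATAC-seq, which uses a transposase to insert adapters into open DNA. The 4 samples were lanes 1 to 4 of 1 group, and the table gave them 1 shared column of values, so 1 library was described, without replicate error and without a contrast between conditions. The sources used here do not give the number of animals. The members were chosen by their measured reads and by their spacing. A region was called distal when its midpoint lay over 1 kb from every transcription start site (TSS) of a protein-coding transcript. Distal regions with 10 or more reads were joined into a chain when the gap to the next one was at most 12.5 kb, and chains of 6 or more were kept. Of 121574 listed regions, 97141 were distal and 33719 of these had 10 or more reads. The rule kept 1748 of them in 236 chains, and the other 31971 lay outside chains.

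Distal open regions are candidate enhancers, insulators and promoters of noncoding transcripts. Enhancers of genes that set cell identity often lie in dense groups, sometimes called stretch enhancers or super-enhancers, and these are usually defined from histone marks or cofactor binding rather than from accessibility. Dense accessibility can also come from tandem repeats with a binding site in each unit, or from clusters of short genes such as those for transfer RNA (tRNA). The incisor of the mouse grows throughout life, and its mesenchyme holds the progenitors of odontoblasts, the cells that lay down dentin.

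The 2 chains with the most reads lay on the X chromosome, and both ran along tandem repeats of noncoding genes. The first, at chrX:50549834-50635555 (mm10 throughout), held 22 regions, of which 20 had their midpoint inside Firre, a long noncoding RNA gene whose RNA organises nuclear domains. The nearest protein-coding gene was Olfr1324, an olfactory receptor gene with its TSS 164 kb away. The second, at chrX:75734661-75764968, held 11 regions, all inside 4933407K13Rik. This gene covers the macrosatellite Dxz4, known for its place at the border between the superdomains of the inactive X chromosome. The repeat is visible in the letters. A word of 20 bases stood in 8 of the 22 regions of the Firre chain and in 5 of the 11 regions of the 4933407K13Rik chain, and all copies in a chain lay on the same strand. The following copies, from GRCm38.p6, plus strand, carry 30 bases on each side of the word and are ordered by the reads of their region. Capitals mark the bases that are identical in all 5 copies shown, which number 44 of 80 for Firre and 74 of 80 for 4933407K13Rik.

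Firre, chrX:50572427-50572506: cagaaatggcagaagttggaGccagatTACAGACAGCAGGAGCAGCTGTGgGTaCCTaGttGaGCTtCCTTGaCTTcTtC
Firre, chrX:50614593-50614672: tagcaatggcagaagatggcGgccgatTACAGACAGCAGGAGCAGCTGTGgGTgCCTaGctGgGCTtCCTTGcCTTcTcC
Firre, chrX:50605240-50605319: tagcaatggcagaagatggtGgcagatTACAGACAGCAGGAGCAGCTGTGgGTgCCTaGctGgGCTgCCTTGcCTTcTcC
Firre, chrX:50566603-50566682: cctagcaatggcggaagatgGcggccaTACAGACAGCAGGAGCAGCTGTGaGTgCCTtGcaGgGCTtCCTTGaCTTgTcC
Firre, chrX:50617227-50617306: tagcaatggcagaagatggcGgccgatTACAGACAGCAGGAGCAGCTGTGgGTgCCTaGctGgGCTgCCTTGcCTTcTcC
4933407K13Rik, chrX:75744595-75744674: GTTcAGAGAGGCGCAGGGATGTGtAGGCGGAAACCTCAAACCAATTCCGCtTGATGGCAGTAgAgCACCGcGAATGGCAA
4933407K13Rik, chrX:75735020-75735099: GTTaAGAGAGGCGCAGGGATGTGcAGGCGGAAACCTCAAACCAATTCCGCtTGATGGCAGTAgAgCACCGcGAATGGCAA
4933407K13Rik, chrX:75750444-75750523: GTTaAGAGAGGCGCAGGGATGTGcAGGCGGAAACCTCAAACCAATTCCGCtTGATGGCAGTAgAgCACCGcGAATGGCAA
4933407K13Rik, chrX:75758172-75758251: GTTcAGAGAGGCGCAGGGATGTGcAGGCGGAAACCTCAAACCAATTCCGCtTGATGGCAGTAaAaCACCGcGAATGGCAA
4933407K13Rik, chrX:75759167-75759246: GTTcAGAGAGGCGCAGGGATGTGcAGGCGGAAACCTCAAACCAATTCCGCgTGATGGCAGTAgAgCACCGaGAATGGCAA

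The regions that hold these copies had, in the order shown, 102, 88, 63, 36 and 30 reads in the Firre chain. In the 4933407K13Rik chain they had 201, 153, 112, 101 and 24 reads. The regions also differed in width, at 994, 676, 729, 443 and 388 bases in the Firre chain. In the 4933407K13Rik chain they were 454, 411, 251, 391 and 222 bases wide. Reads thus differed between regions that shared the word, but these counts were not corrected for width. Regions with the word took 366 of the 881 reads of the Firre chain and 591 of the 796 reads of the other. Counting every word of 20 bases, 16 Firre regions and 8 of the 4933407K13Rik regions shared 10% or more of their words with another region of the chain. Among all 1748 members only 32 did so, in 7 chains. The sources used here do not state whether reads that fit several repeat copies were kept, or how they were assigned. The split of reads between copies is therefore uncertain. How far the summed reads and the rank of these chains depend on it was not tested. CTCF, the insulator protein, is known to bind both loci, but no member of either chain held an exact match to the CTCF consensus searched here.

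The chains held 54875 reads, which is 6.16% of the reads of distal regions with 10 or more reads and 2.39% of the 2297894 reads in all listed regions. By number they were 5.18% of those distal regions. Their spans summed to 8.43 Mb, or 0.309% of the chromosomes, and the member regions themselves covered 681 kb. A chain had a median of 7 regions and at most 22, and 31 chains had 10 or more. Summed reads ran from 81 to 881 with a median of 195.5 and quartiles of 141.75 and 295.5. Spans ran from 4.67 kb to 100.4 kb with a median of 33.6 kb. Reads per kilobase of span ran from 1.92 to 53.5 with a median of 5.95. The gap between neighbours had a median of 4.93 kb, and 108 of 1512 gaps were 0 because the listed regions abut. Single members had 10 to 346 reads with a median of 20, and 81 members had 100 or more.

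The cutoffs fall in a continuous range. Just inside, 115 chains had 6 regions, with a median of 164 reads. Just outside, 244 runs had 5 regions, with a median of 119 reads. Likewise, 3291 distal regions had 10 reads and 3762 had 9. The chain with the least reads lay in introns 70.0 kb from the TSS of Pitpnb, a gene for a phosphatidylinositol transfer protein, and had 81 reads (95% Poisson interval 64.3 to 101). All such intervals are exact and cover counting error alone. They take reads as independent, and the sources used here do not state whether duplicates were removed or mates counted separately.

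**Figure D1:**
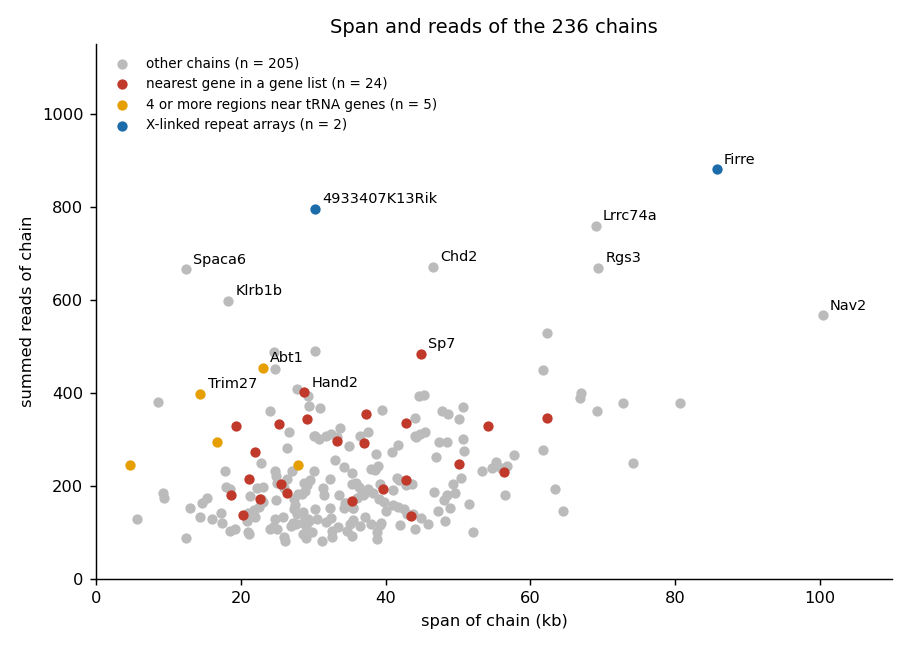
Span of each of the 236 chains in kilobases (x axis) against its summed reads (y axis), 1 point per chain. The 2 chains on X-linked repeats and the chains at Lrrc74a, Chd2, Rgs3 and Spaca6 have 666 or more reads, and the 5 chains with tRNA genes span 4.67 to 27.9 kb.

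The chains with the most reads differed in how their reads were spread. The third, at chr12:86767973-86836985, had the most reads of the chains outside repeats, with 21 regions, all intergenic, and 759 reads (706 to 815). Its midpoint was nearest to Lrrc74a, a leucine-rich repeat gene, at 68.1 kb, while its largest region lay nearest to Irf2bpl, a gene for a nuclear regulator. Its regions had, from left to right, 10, 38, 39, 30, 12, 12, 11, 49, 10, 98, 34, 16, 72, 23, 143, 49, 14, 17, 12, 28 and 42 reads. No region held more than 143, so many regions of moderate size made up this sum.

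The chain near Chd2, a chromatin remodeller gene, was the opposite case. It lay at chr7:73581815-73628399, its 7 regions had 24, 38, 29, 114, 93, 346 and 27 reads, and the sum was 671 (621 to 724). The region of 346 reads, chr7:73617911-73619034, was the largest of all members and lay 76.7 kb from the Chd2 TSS, in intergenic sequence. Its central 200 bases were 74.5% GC with 21 CpG, and held the CTCF match that the X-linked repeats lacked, beside an ETS match. The window is shown with both matches in capitals.

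Chd2 chain, chr7:73618373-73618572: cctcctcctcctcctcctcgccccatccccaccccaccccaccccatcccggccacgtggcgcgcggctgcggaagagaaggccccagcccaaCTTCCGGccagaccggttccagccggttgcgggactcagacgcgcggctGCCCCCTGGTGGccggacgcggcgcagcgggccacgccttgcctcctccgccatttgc

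Over all chains, the largest region took a median of 31.6% of the reads, from 11.6% in the Firre chain to 59.1%. It took over 50% in 15 chains.

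Chains near Rgs3, Klrb1b and Dbx1 also ranked among the 10 with the most reads. The chain near Rgs3, a regulator of G-protein signalling, had 15 regions and 669 reads (619 to 722), of which regions of 136 and 148 reads were the largest. The region of 136 reads lay 88 bp from an Rgs3 transcript start that the rule did not count. The chain at chr6:128838245-128856501 near Klrb1b, a lectin-like receptor gene of natural killer cells, had 7 regions with 302, 170, 40, 36, 11, 25 and 14 reads. Klrb1b is a gene of leukocytes, and its own promoter had 0 reads. Of 11 leukocyte marker promoters only that of Lyz2 had any, with 7 reads. Which cells carry the Klrb1b chain was not tested. The chain of 18 regions and 567 reads nearest to Dbx1, a homeobox gene of neural tube progenitors, lay entirely in introns of Nav2, a gene for a cytoskeletal guidance protein. At 100.4 kb it was the longest chain, its Dbx1 TSS was 161 kb away, and no region in it exceeded 93 reads.

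**Figure D2:**
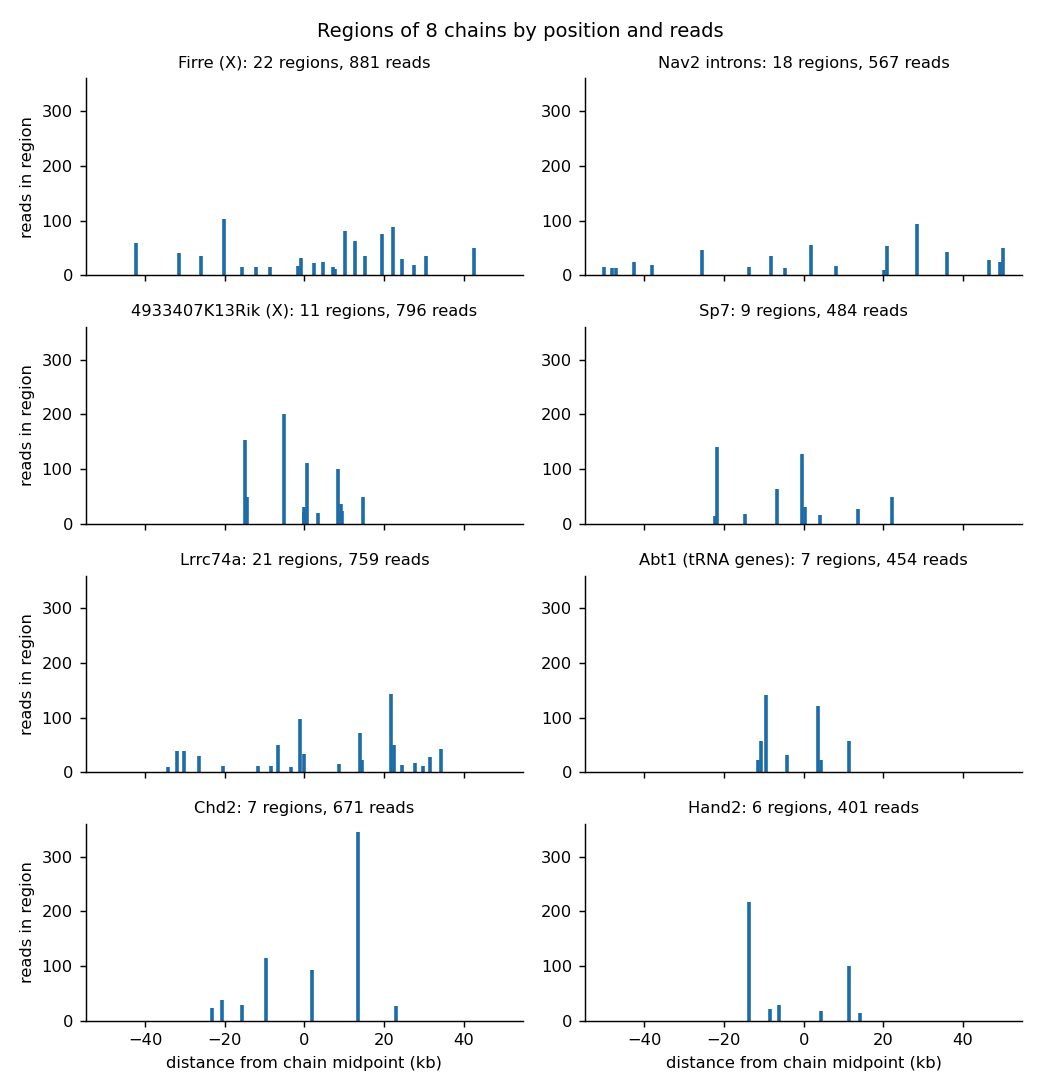
Reads in each region (y axis) against the distance of the region from the midpoint of its chain in kilobases (x axis) for 8 chains, 1 bar per region. Reads are spread over many regions at Firre, Lrrc74a and the Nav2 introns, while the largest region holds 51.6% of the reads at Chd2 and 54.4% at Hand2.

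The chain with the most reads per kilobase, 53.5, lay at Spaca6 on chromosome 17, a gene needed for the fusion of sperm and egg. Its 8 regions in 12.4 kb had 35, 25, 239, 45, 13, 39, 11 and 259 reads. Both large regions lay at transcript starts that the rule did not count: in the full annotation, a Spaca6 transcript typed as nonsense-mediated decay starts at 17827158 inside the region of 239 reads, and one typed as retained intron starts at 17838281 inside the region of 259 reads. In all, 87 of the 1748 members (4.98%) with 3640 reads lay within 1 kb of a start that only the full annotation of protein-coding genes gives. They were the largest region in 12 chains. This share was not computed for distal regions outside chains, so it cannot be called a trait of chains. Between the large regions lie 3 microRNA genes, Mir99b, Mirlet7e and Mir125a, which share a primary transcript. Their 5′ mature forms, from RefSeq on GRCm38.p6, are shown with the seed (bases 2 to 8) in capitals.

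miR-99b-5p, chr17:17830194-17830215: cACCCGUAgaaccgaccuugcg
let-7e-5p, chr17:17830366-17830387: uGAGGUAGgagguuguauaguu
miR-125a-5p, chr17:17830817-17830840: uCCCUGAGacccuuuaaccuguga

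The seeds differ from one another, and that of let-7e-5p is the seed of the let-7 family. The spans of 6 chains held 11 of 1072 microRNA genes, where the spans of all chains cover 0.309% of the chromosomes. Several of the 11 lie in the same cluster, so they are not independent, and no test was run. Besides Spaca6, the Nanos3 chain on chromosome 8 (308 reads) held the cluster of Mir23a, Mir27a and Mir24-2, with Mir3074-2 on the other strand. The Camk1g chain on chromosome 1 (124 reads) held Mir205, which is known from epithelium. These 2 chains were named after their values were seen.

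A set of 5 chains was marked by tRNA genes, which RNA polymerase III transcribes from promoters within the gene. A tRNA gene lay within 1 kb of the midpoint of 30 of 1748 members (1.72%, exact 95% binomial interval 1.16% to 2.44%), against 0.310% (0.252% to 0.377%) of distal regions with 10 or more reads outside chains. These intervals treat regions as independent, which neighbours in a chain are not, so they are too narrow. Of the 30, 28 lay in 5 chains, among them those nearest to Abt1, Trim27, Hist1h4h and Zfp213. This set, with 4 or more such members each, was defined after the values were seen. The Abt1 chain at chr13:23430794-23453847 had 23, 57, 141, 32, 121, 22 and 58 reads, and all 7 regions lay near tRNA genes. The Trim27 chain at chr13:21158876-21173308 had 15, 127, 100, 90, 17, 34 and 15 reads, and 6 of 7 did. The Zfp213 chain on chromosome 17 was the shortest of all, with 6 regions and 244 reads in 4.67 kb, and all 6 did. In the read classes of 10 to 19, 20 to 49 and 50 or more reads, the share near a tRNA gene was 1.07%, 1.74% and 3.69% in chains and 0.128%, 0.250% and 1.75% outside, so it was higher in chains in each class. Over the genome, 202 of 403 tRNA genes lay within 1 kb of the midpoint of a listed region, and 34 lay within 1 kb of a chain member. A tRNA gene in the largest region of the Abt1 chain is shown on its own strand (minus), with the gene, which includes an intron, in capitals and 30 bases on each side.

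Abt1 chain, tRNA-Tyr n-TYgta7, chr13:23432960-23433107: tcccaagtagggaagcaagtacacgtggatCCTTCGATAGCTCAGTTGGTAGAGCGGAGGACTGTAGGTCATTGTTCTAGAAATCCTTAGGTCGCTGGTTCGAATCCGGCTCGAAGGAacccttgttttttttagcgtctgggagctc

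The chains had 222 nearest protein-coding genes, of which 13 were nearest to more than 1. The TSS lay a median of 29.5 kb from the midpoint of the chain (quartiles 13.6 and 70.9 kb), and over 100 kb away for 45 chains. The nearest gene need not be the one that a chain acts on. In 17 gene lists for dental and skeletal cells, signalling pathways and other cell types, members were compared with all 21840 protein-coding genes, of which 1.02% were nearest to a chain. Among 28 dental mesenchyme factors 5 were nearest to a chain (17.9%), as were 3 of 19 odontoblast and osteoblast genes (15.8%). The lists were chosen with earlier results of these data known, the width of intergenic sequence around the genes was not matched, and no test was run on the lists.

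Dental mesenchyme factors were represented by Hand2, Dlx2, Pax9, Msx2 and Gli2. Hand2 encodes a basic helix-loop-helix factor of the mandibular arch. Its chain at chr8:57328061-57356864 had 218, 21, 29, 18, 101 and 14 reads, and 4 of the 6 regions lay in noncoding genes downstream of Hand2. The Hand2 chain thus rested on 2 regions, the larger of which lay 7.67 kb from the TSS. Dlx2 encodes a homeobox factor of the first arch, and its chain had 109, 43, 34, 68, 17 and 58 reads. The region of 109 reads lay in an exon, nearest to the neighbouring gene Dlx1 and 334 bp from a Dlx1 transcript start of the full annotation. Msx2, a homeobox factor that acts with BMP signals in the tooth germ, had 2 chains. The nearer, centred 1.53 kb from the TSS, had 13, 21, 16, 40, 102 and 12 reads, and the farther, 228 kb upstream, had 22, 42, 14, 35, 68 and 13 reads. Their sums of 204 (177 to 234) and 194 (168 to 223) reads did not differ beyond counting error. Pax9, a paired-box factor required for tooth development, had 9 regions over 56.3 kb, and none exceeded 40 reads. Gli2, a transcription factor of the hedgehog pathway, had 6 regions with 29, 27, 24, 30, 62 and 13 reads, all intergenic.

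The largest regions of the Hand2, Msx2 and Gli2 chains differed in composition, as their central 200 bases show. Capitals mark exact matches to the motifs searched, some of them as the reverse complement of the letters given. In the Hand2 window these are 2 Twist-type E-boxes (CAGATG), a CREB match (TGACGTCA) and 1 word of the Gata factors (AGATAA). In the Msx2 window they are an SP/KLF match (GGGCGG) and a TEAD match (CATTCC), in a window that is 76.5% GC. The Gli2 window, at 43.5% GC, held homeobox (TAATTA), forkhead (TGTTTAC), TEAD, GATA and both E-box matches.

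Hand2 chain, chr8:57328553-57328752: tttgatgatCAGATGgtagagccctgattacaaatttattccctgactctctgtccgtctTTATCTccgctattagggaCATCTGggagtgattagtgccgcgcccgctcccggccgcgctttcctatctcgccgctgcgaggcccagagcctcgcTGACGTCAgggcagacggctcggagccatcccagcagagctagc
Msx2 chain 1, chr13:53476065-53476264: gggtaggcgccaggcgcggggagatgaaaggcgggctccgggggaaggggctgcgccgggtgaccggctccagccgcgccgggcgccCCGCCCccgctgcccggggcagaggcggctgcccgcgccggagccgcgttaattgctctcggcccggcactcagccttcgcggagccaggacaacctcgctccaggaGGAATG
Gli2 chain, chr1:119106522-119106721: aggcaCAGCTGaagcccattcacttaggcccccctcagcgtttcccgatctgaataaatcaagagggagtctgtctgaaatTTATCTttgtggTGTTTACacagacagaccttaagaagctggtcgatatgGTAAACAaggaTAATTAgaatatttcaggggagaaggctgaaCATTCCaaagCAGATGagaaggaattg

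Odontoblast and osteoblast genes were represented by Sp7, Wnt10a and Sp6. Sp7 encodes osterix, a zinc finger factor of osteoblasts and odontoblasts. Its chain at chr15:102355189-102400077 had 15, 140, 17, 63, 127, 31, 16, 27 and 48 reads, a sum of 484 (442 to 529), which was the largest among chains at listed genes. The regions of 63 and 127 reads lay nearest to Sp7 itself, 3.94 and 10.2 kb from its TSS, whereas that of 140 lay nearest to Aaas and the last 2 nearest to Sp1. The Sp7 promoter had only 27 reads, fewer than several regions of the chain. Wnt10a, a Wnt ligand gene mutated in tooth agenesis, had 11 regions with 13 to 68 reads and a sum of 328. No listed region lay within 1 kb of its TSS in the basic annotation, but the member of 16 reads lay 101 bp from a Wnt10a transcript start of the full annotation. Sp6, a factor of tooth epithelium and odontoblasts, had 6 regions and 181 reads. Levels of the chains are not expression, and which cells of the tissue carry an open region cannot be told from bulk data: fewer cells with a site and a less open site cannot be told apart.

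Of 32 BMP and TGF-beta genes 4 were nearest to a chain (12.5%). They were Bmp7, a ligand with 2 chains (345 and 167 reads), Id3, a target gene (343 reads), and the inhibitory Smad genes Smad6 and Smad7. The Smad6 chain had 14, 14, 20, 129, 48 and 72 reads and lay 95.7 kb from the TSS. Smad7 was nearest to 3 chains, the most of any gene, with 292, 172 and 138 reads at 22.2, 98.1 and 133 kb downstream of its TSS. For the other pathways, 2 of 14 FGF genes (Fgf1 and Fgfr3), 2 of 18 AP-1 and early response genes (Fosb and Egr3), 1 of 12 IGF genes (Igf2r) and 1 of 23 matrix genes (Sparc) were nearest to a chain. The Egr3 chain had 272 reads, and its member of 13 reads lay 112 bp from an Egr3 transcript start of the full annotation. No gene of the Wnt list (26), the Yap and Tead list (12) or the chondrocyte list (7) was nearest to a chain, which for lists of this size is near the share of 1.02% over all genes. The Wnt list did not hold every Wnt gene. Besides Wnt10a, the Wnt ligand gene Wnt7b (489 reads, with its TSS 58.4 kb away) and the Wnt receptor gene Fzd5 (204 reads, 93 kb away) were nearest to chains, and both were looked up after the values were seen.

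Ptch1, the hedgehog receptor and target gene, was 1 of 9 genes of the hedgehog list and the only one of them nearest to a chain; the Gli genes, of which Gli2 had a chain, stood in the dental mesenchyme list. Its 9 regions had 17, 11, 16, 39, 12, 149, 15, 53 and 21 reads, 7 of them in introns. The region of 149 reads lay within 1 kb of the start of the noncoding gene A930032L01Rik, and that of 53 lay 107 bp from a Ptch1 transcript start of the full annotation. The GLI consensus GACCACCCA, bound by the hedgehog factors, stood in 7 of 1748 members (0.400%, 0.161% to 0.823%). Outside chains it stood in 0.300% of the distal regions (0.243% to 0.367%), and the intervals overlapped. Of the 7 members, 2 lay in the Hsd17b3 chain, 10 intergenic regions with 399 reads. The midpoint of this chain is 85.9 kb from the Hsd17b3 TSS and 438 kb from the nearest Ptch1 TSS. It is shown because it held 2 of the matches, and a link to Ptch1 was not tested. The windows of both matches have the GLI match in capitals, and their regions had 70 and 21 reads.

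Hsd17b3 chain, chr13:64003124-64003323: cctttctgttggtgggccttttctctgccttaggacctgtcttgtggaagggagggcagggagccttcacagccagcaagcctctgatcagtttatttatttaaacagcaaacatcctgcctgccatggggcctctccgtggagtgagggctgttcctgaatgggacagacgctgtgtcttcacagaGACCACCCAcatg
Hsd17b3 chain, chr13:64031268-64031467: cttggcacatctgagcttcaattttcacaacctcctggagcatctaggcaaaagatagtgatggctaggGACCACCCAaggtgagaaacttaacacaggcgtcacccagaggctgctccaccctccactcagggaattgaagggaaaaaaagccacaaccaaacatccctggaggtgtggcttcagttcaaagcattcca

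**Figure D3:**
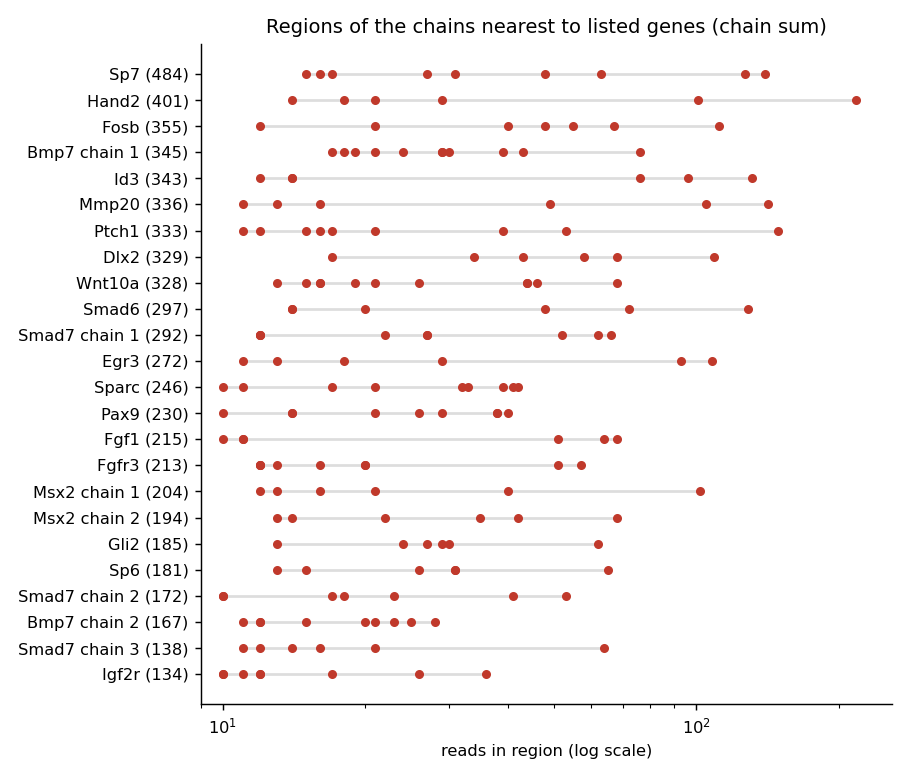
Reads of each region (x axis, log scale) in the 24 chains whose nearest gene is in a gene list (y axis, with the summed reads of the chain in parentheses), 1 point per region. Single large regions stand out at Hand2 (218) and Ptch1 (149), while no region at Pax9 exceeds 40.

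Markers of other cell types were read at their promoters to check the labelled tissue. Promoters of the dental mesenchyme factors had a median of 77 reads and 25 of 28 had any. The odontoblast and osteoblast genes had a median of 27 (15 of 19 with any) and the chondrocyte factors 36 (7 of 7). Medians were 0 for leukocyte and skeletal muscle markers, 15 for endothelial, 16.5 for pericyte and smooth muscle, and 19 for Schwann cell and for dental epithelium markers. Any reads were found at 1 of 11 leukocyte, 9 of 11 endothelial and 9 of 10 pericyte and smooth muscle markers. The same held for 6 of 9 Schwann cell and 8 of 12 dental epithelium markers. Most of these lists thus had some promoter reads, at lower medians than the dental mesenchyme factors. The share over all protein-coding promoters was not computed. For 9615 genes nearest only to distal regions outside chains, the median was 47 and 21.9% had none. Medians of the odontoblast and osteoblast genes and of the chondrocyte factors were below 47. Counts of markers with any reads therefore say little about the tissue on their own. Among the muscle markers, 4 of 9 had any reads and Mylpf, a myosin light chain gene, had 282. None of the 11 leukocyte, 11 endothelial, 10 pericyte, 9 Schwann cell and 9 muscle markers was nearest to a chain, which is near the share of 1.02% over all genes and shows nothing about these markers. Of 12 dental epithelium markers, Mmp20, a protease of ameloblasts, was nearest to a chain with 105, 142, 11, 49, 13 and 16 reads, and its promoter had 17. The promoter of Ambn, an enamel matrix gene, had 112 reads, whereas those of Amelx and Enam had 0. The part of epithelial cells in the Mmp20 chain was not tested.

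Promoters of the 222 nearest genes were also read. They had a median of 88.5 reads, and 11.7% had none. For 9615 genes that were nearest only to distal regions outside chains, the median was 47 and 21.9% had none. Distance, gene length and CpG content of the promoters were not matched. A promoter region of a protein-coding gene lay within the span of 57 chains, with 111 such regions and 5154 reads in all.

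By position, 46.2% of members lay in introns of protein-coding genes (43.8% to 48.5%), against 44.8% (44.3% to 45.4%) outside chains, so the intervals overlapped. Exons held 2.0% (1.40% to 2.77%) against 3.44%, intergenic sequence 41.3% against 43.6%, and noncoding genes 10.5% (9.13% to 12.1%) against 8.15%. Without the 2 X-linked repeat chains, the share in noncoding genes was 8.92% (7.61% to 10.4%), and its interval then held the value outside chains. In 67 chains every region was intronic, and in 38 every region was intergenic. Members lay within 1 kb of the TSS of a long noncoding RNA in 4.92% of cases (3.95% to 6.04%), against 3.82% (3.61% to 4.03%), and 56 chains had such a member. In the classes of 10 to 19, 20 to 49 and 50 or more reads, the shares were 3.67%, 4.91% and 8.86% in chains and 2.96%, 3.84% and 9.47% outside, and in each class the exact interval for chains held the value outside.

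Chains were unevenly spread over chromosomes. The X chromosome had 5 chains with 53 regions, 9.09% of its distal regions with 10 or more reads, and chromosome 12 had 17 chains with 8.86%. Chromosome 3 had only 3 chains with 22 regions, or 1.14%, although 1934 of its distal regions had 10 or more reads. The other chromosomes fell between 3.70% and 7.41%. Of the 53 X-linked regions, 33 lay in the 2 tandem repeat chains, and without these 2 chains the share on the X chromosome was 3.64% (20 of 550).

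GC content rose with the length of the run. The central 200 bases had a median GC content of 47.5% in regions that stood alone, 49% in runs of 2, 50% in runs of 3 to 5 and 52% in chains. The 20 motifs were searched on both strands in those windows as exact consensus matches. Of these, CTCF was searched by its consensus, and further letters were TGANTCA for AP-1, CAGCTG for the Tal and MyoD type of E-box, TGTGGTT for RUNX and CCCNNGGG for EBF. The rest were CTTTGAT for TCF/LEF, TTGGCA for NFI factors, ACAATG for SOX, CCGGAAG for ETS, CTATTTATA for MEF2, TAATCC for PITX/OTX and AGGTGTGA for T-box factors. Matches of different motifs overlapped rarely, with 8 pairs among 192 EBF and 306 SP/KLF sites as one of the most frequent cases.

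An SP/KLF match, the GC box bound by Sp and Klf factors, stood in 13.7% of members (12.1% to 15.4%) and in 9.29% of distal regions with 10 or more reads outside chains. The share rose from 8.27% of regions alone through 9.57% in runs of 2 and 11.1% in runs of 3 to 5. Within classes of GC content the shares were close. They were 1.20% in chains and 1.31% outside at under 45% GC, 5.49% and 5.73% at 45% to 55%, and 30.3% (26.7% to 34.1%) and 28.8% at 55% or more. The Tal and MyoD type of E-box stood in 18% of members (16.2% to 19.8%) and 14.6% outside, and within the 3 GC classes its shares were 10.4% and 8.34%, 16.9% and 15.8%, and 22.4% and 20.9%. EBF matches showed the same layout, with 9.04% and 6.93% overall and 15.1% and 15.0% at 55% GC or more. Homeobox matches, which are rich in A and T, stood in 12.3% of members and 14.0% outside, but within the GC classes they were more frequent in chains by their point values: 28.0% and 25.1%, 13.4% and 11.4%, and 4.49% and 3.63%.

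Among the motifs split by GC class, CTCF was the exception. A match stood in 3.89% of members (3.03% to 4.91%) and 5.56% of distal regions outside chains (5.31% to 5.82%), and the share fell from 5.93% of regions alone through 5.52% and 4.82% in longer runs. In contrast to SP/KLF, the share was lower in chains within each GC class, with 1.20% and 2.92%, 5.26% and 7.11%, and 3.04% (1.84% to 4.71%) and 5.90% (5.36% to 6.49%). The intervals were apart at 55% GC or more and overlapped in the other 2 classes. By point values it was also lower within each read class, at 4.38% and 6.10% for 10 to 19 reads, 4.27% and 5.56% for 20 to 49, and 1.48% and 1.93% for 50 or more, where only 4 members had a match. The intervals overlapped in each read class. Without the 2 X-linked chains the share of members with a CTCF match was 3.97% (3.09% to 5.0%). AP-1, the Fos and Jun site, stood in 7.44% of members (6.25% to 8.77%) and 6.87% outside, and RUNX in 7.15% (5.99% to 8.46%) and 7.96%, so neither differed beyond its interval. The intervals were apart for ETS, at 2.35% (1.69% to 3.17%) and 1.48% (1.35% to 1.62%), and for PITX/OTX, at 4.23% (3.34% to 5.29%) and 5.62% (5.37% to 5.88%). These 2 motifs were not split by GC class, and the intervals take neighbouring regions as independent. For GATA the intervals overlapped narrowly, at 8.01% (6.78% to 9.38%) and 9.65% (9.33% to 9.98%). From the lowest to the highest GC class, GATA shares were 13.2% and 15.4%, 9.04% and 8.76%, and 4.49% and 3.26%. The GATA share was thus lower in chains in the lowest GC class alone. For TEAD, SOX, forkhead, TCF/LEF, NFI, MEF2, T-box, CREB and Twist-type E-box words the overall intervals also overlapped.

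**Figure D4:**
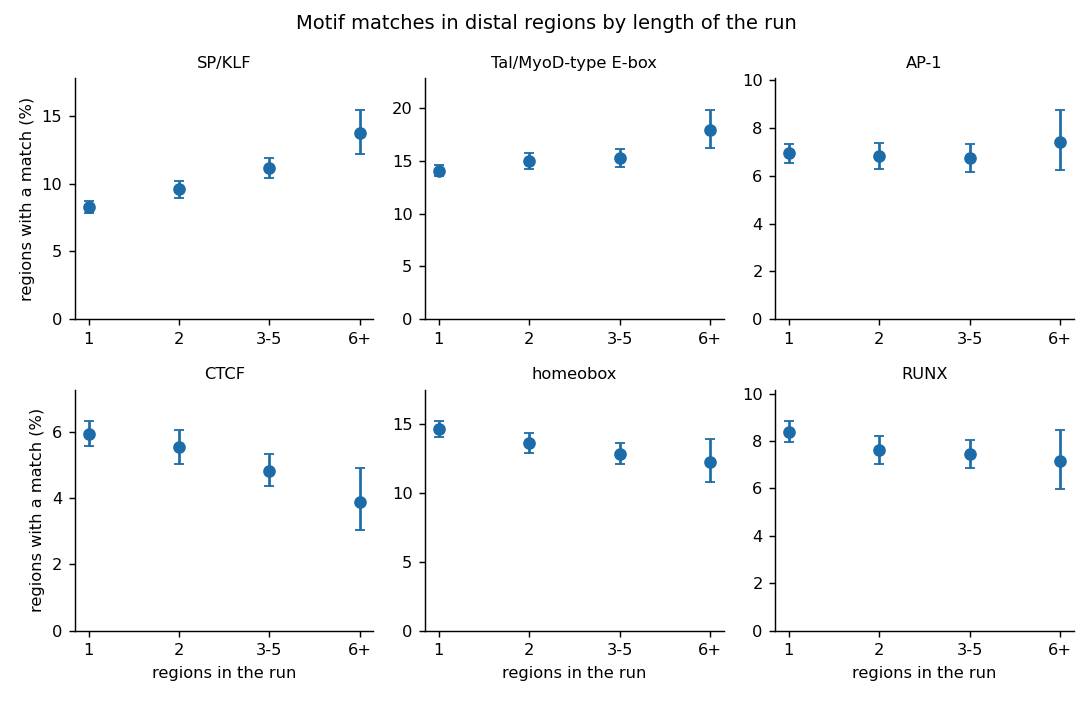
Percent of distal regions with 10 or more reads that hold an exact match to each of 6 motifs (y axis) against the number of regions in their run (x axis), with exact 95% binomial intervals over regions. SP/KLF rises from 8.27% to 13.7% and CTCF falls from 5.93% to 3.89% with the length of the run, while AP-1 stays between 6.73% and 7.44%.

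CpG-rich windows were more frequent among the largest regions, which are chosen by their reads. Of the 236 largest regions, 18.6% had 10 or more CpG in the central 200 bases, against 8.20% of the other members. In the classes of 10 to 19, 20 to 49 and 50 or more reads, the share was 5.80% (4.32% to 7.59%), 9.02% (6.90% to 11.5%) and 22.9% (18% to 28.3%) in chains and 4.30%, 7.96% and 25% outside. It was thus higher in chains in the lower 2 classes and lower in the highest, and in the upper 2 classes the interval for chains held the value outside. No member shared a word of 20 bases with the mitochondrial genome. Soft-masked repeats covered a median of 5% of the window in chains and 1.5% outside.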

How the data were processed

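The study aligned paired reads to mm10 using BWA-MEM and called peaks using MACS2, per the labels' protocols. STAR 2.6.1d and Partek are named in the submitters' processing notes, without a role. Treatment of duplicates and of reads with several alignments, and any transposase shift, are not given in the sources used here. The deposited table gives CPM per region, with 1 read added. One read was worth 0.0484 CPM, and 99.9% of values were whole multiples within 0.01 read, from which reads were taken as the rounded multiple minus 1. The table has 1 value column with no sample, which was not used. The design allowed for a value per lane, but the lanes share 1.

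Members and gene lists were chosen with earlier results of these data known. Starts were those of protein-coding transcripts in GENCODE vM21 basic, and regions were classed by midpoint. Sequences came from GRCm38.p6, which equalled 658 of 658 RefSeq promoters compared. Chaining and motif search recovered 200 of 200 simulated chains and 4000 of 4000 planted sites. Named chains were the 20 with the most reads, the 3 with the most regions, span or reads per kilobase, the chain with the least reads, and those nearest to listed genes, from which the text takes those it describes. No test was run: intervals are exact, Poisson for reads and binomial for shares. Python 3.11.15, pandas 2.3.3, scipy 1.17.1 and pysam 0.24.0 were used. Alternatives changed the read minimum, gap, chain size, TSS distance, TSS set and merging of abutting regions. Some items are not reported here.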

Additional observations from a re-analysis of the deposited data

How the results depend on the processing

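The extent of the chains followed the thresholds. With 5 or 20 reads required there were 1036 or 26 chains, with gaps of 5 or 25 kb 16 or 797, and with at least 4 or 10 regions 982 or 31. In the same order, members numbered 8094, 174, 112, 6684, 4976 and 368, and they held 15.5%, 1.40%, 0.563%, 21.7%, 16.3% and 1.35% of the reads of distal regions that met the read minimum. The counts stayed within 1.5 times of the reported ones with starts at 5 kb, with starts of every gene type, with abutting regions merged and without either set of special chains, and the read shares were then 4.79%, 5.46%, 5.68%, 5.97% (without the 2 chains with the most reads) and 5.97% (without the 5 tRNA chains). These last 2 settings were chosen after seeing the data. The share of members in introns was 49.9% at 5 reads, 40.2% at 20 reads, 19.6% with gaps of 5 kb, 38.9% with 10 or more regions and 51.2% with starts of every gene type. The share with an AP-1 match was 6.25% with gaps of 5 kb and 6.25% with 10 or more regions. Ranking by reads per kilobase kept 11 of the 20 leading chains, and ranking without each largest region kept 15. The causes were not tested. The 4 lanes share 1 value, so leaving out a lane could not be run. No paired analysis was possible because there is 1 group. Regions near 10 reads have wide counting intervals, so membership at the edges of chains is uncertain.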
